A study of Mus musculus with 9 samples.

Results

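The angiogenic factors and endothelial receptors examined here are 10 genes of vessel growth and vessel stability in mouse skin: the ligands Vegfa, Vegfc, Angpt1 and Angpt2, the receptors Kdr, Flt1, Tek and Tie1, and the junction molecules Pecam1 and Cdh5. They were chosen by name from the platform annotation, all 10 were measured, and each had 1 feature among the 19505 named genes of the array. All samples were back skin of C57BL/6J mice aged 8 weeks, depilated and treated daily for 7 days with 5% imiquimod cream, a Toll-like receptor agonist that induces psoriasis-like inflammation. In the stretch group (n = 5) a glued plastic device had been extended by 10 mm on the first day, and in the no-stretch group (n = 4) the imiquimod-treated skin was not under full stretch. The labels do not state whether a device sat on the skin of the no-stretch group, whether each sample was a separate mouse, or which layers were collected, so the p-values here rest on a spread that may be technical. Skin without imiquimod was not analysed here.

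Vascular endothelial growth factor A is released by keratinocytes, macrophages and other cells, and acts on endothelial cells mainly through KDR, while FLT1 binds it tightly and can act as a decoy. Angiopoietin 1, made by cells around vessels, activates the receptor kinase TEK (also known as TIE2) and keeps vessels quiescent and tight. Angiopoietin 2, which activated endothelium itself releases, usually opposes that signal, and TIE1 is a related receptor that pairs with TEK. PECAM1 and the cadherin CDH5 sit at the contacts between endothelial cells; PECAM1 is also carried by platelets and several leukocytes. In psoriasis-like skin, widened and leaky dermal vessels are a known part of the lesion.

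Values are log2 expression, so a difference of 1 is a doubling, and a change is the mean of the stretch group minus the mean of the no-stretch group. The tissue held strong keratinocyte signal, with Krt14 at a mean of 19.5 with stretch and 19.0 without, and of 38 listed blood endothelial markers 36 were measured, among them 6 of the members. The array gives no detection calls here, so whether a low gene lay above background was not assessed. In whole skin, fewer endothelial cells and less RNA per endothelial cell cannot be told apart.

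None of the 10 members passed the test in either direction (limma, Benjamini-Hochberg over 19505 genes, threshold 0.05; Kdr, Tek and Angpt2 had an unadjusted p under 0.05, as did 13.0% of all genes), where 0.082% of all genes passed as higher and 0.164% as lower. The clearest separation was in Tek, which was lower on every stretched array than on every no-stretch array. Of the other members, 8 had a positive change and 1, Vegfc, a negative one, and their groups overlapped. Over all genes the groups did not overlap in the lower direction for 2.15% and in the higher direction for 2.38%, against 1 and 0 of the 10 members. With a background of this size, 1 member in 10 is read as a description of Tek alone. The median change of the members was 0.50, against -0.0034 for all genes. Without no-stretch replicate 3, which had the lowest correlation with the other arrays (median r = 0.9749 across genes, against 0.980 to 0.987), the median was 0.38 and 8 members still had a positive change. That array held the lowest value of all 9 arrays for 6 of the 10 members.

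**Figure D1:**
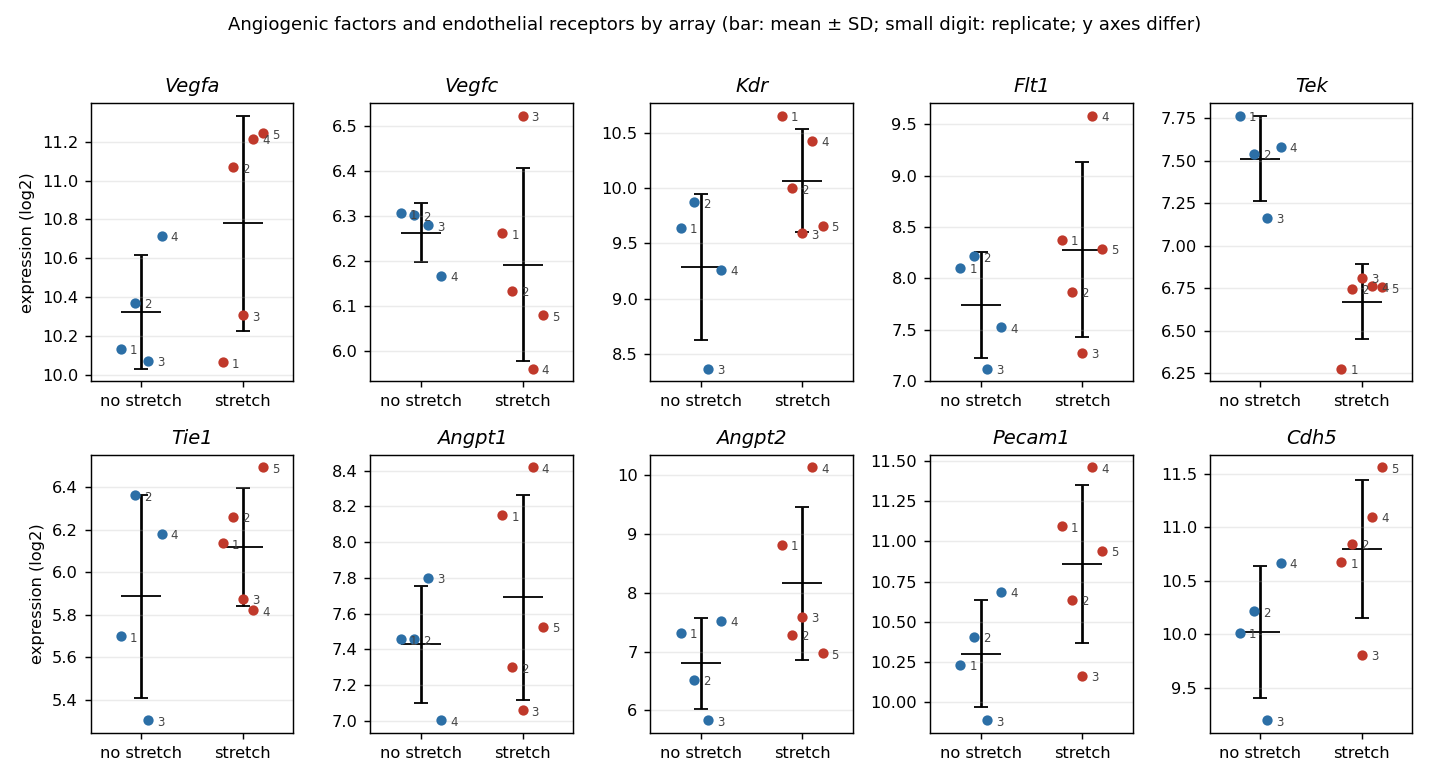
Expression (log2) of each member on every array, with no-stretch arrays in blue (n = 4), stretch arrays in red (n = 5), replicate numbers beside the points, and bars for mean ± SD; the y axes differ between panels. Tek is the panel in which the groups do not overlap, and no-stretch replicate 3 is the lowest point of all 9 arrays in 6 panels, Angpt2, Kdr, Flt1, Tie1, Pecam1 and Cdh5.

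The receptors include both the member that was lower on every stretched array and members with positive changes, so the 250 bases before the RefSeq transcription start of each of the 4 receptor genes are shown here (build GRCm38.p6, 5′ to 3′ in the direction of transcription). The window lies at chr4:94739039-94739288 on the plus strand for Tek, and on the minus strand at chr4:118489850-118490099 for Tie1, chr5:75978456-75978705 for Kdr and chr5:147726012-147726261 for Flt1. Capitals mark matches, on either strand, to AGGAAG, 1 form of the site bound by ETS factors, which drive many endothelial genes. They also mark ACGTG or GCGTG, the core of a hypoxia response element. Shorter or other forms of the ETS site were not searched.
Tek: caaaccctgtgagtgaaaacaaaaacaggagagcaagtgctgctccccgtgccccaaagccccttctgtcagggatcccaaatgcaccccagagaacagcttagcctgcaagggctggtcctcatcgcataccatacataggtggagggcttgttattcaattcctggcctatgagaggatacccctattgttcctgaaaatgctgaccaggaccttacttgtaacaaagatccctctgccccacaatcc
Tie1: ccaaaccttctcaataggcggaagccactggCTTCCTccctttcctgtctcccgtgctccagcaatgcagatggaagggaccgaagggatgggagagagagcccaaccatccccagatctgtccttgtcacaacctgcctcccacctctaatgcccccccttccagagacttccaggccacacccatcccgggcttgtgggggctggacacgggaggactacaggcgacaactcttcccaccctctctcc
Kdr: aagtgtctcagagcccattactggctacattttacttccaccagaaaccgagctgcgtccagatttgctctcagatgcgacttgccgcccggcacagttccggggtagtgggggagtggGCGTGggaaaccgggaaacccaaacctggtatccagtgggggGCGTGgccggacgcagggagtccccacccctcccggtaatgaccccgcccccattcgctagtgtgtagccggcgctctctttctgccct
Flt1: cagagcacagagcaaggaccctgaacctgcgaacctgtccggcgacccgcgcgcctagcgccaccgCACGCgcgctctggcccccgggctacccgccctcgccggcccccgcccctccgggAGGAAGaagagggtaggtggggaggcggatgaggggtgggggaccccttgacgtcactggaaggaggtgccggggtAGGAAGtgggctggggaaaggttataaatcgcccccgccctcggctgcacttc
The Tek window held no AGGAAG, no ACGTG or GCGTG and no GATAAG, 1 form of the GATA factor site. Its GC content was 51.2%. Flt1 held AGGAAG at 2 places and 1 hypoxia core, Kdr 2 hypoxia cores and no AGGAAG, and Tie1 AGGAAG at 1 place. GC contents were 70.4%, 61.6% and 60.4% for Flt1, Kdr and Tie1. Among 32851 promoter windows of this length in the same table, 29.5% held AGGAAG, 38.6% held ACGTG or GCGTG and 6.55% held GATAAG. These matches describe the letters in the windows and are not measured binding sites. Of the members, 6 are in the promoter table.

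Tek encodes the receptor for both angiopoietins. Its level was 6.28, 6.75, 6.81, 6.76 and 6.76 in stretch replicates 1 to 5, and 7.76, 7.54, 7.16 and 7.58 in no-stretch replicates 1 to 4. The highest stretched array (6.81) thus lay below the lowest no-stretch array (7.16), and stretch replicate 1 was lower than the other 4, which lay close together. The group means were 6.67 ± 0.22 (SD, n = 5) and 7.51 ± 0.25 (SD, n = 4), a change of -0.84 with a standard error of 0.18 (95% interval -1.23 to -0.45), which is 1.79-fold lower. The difference exceeds both SDs, yet with limma the adjusted p was 0.078, which missed the threshold. It crossed the threshold when the arrays were quantile normalized again (limma adjusted p = 0.049) and when arrays were weighted by quality (0.035). It did not with median centring (limma adjusted p = 0.076), limma's trend (0.093), a robust fit (0.079) or a replicate block (0.13). Nor did it over all features (0.090), or among genes above the lower quartile (0.069) or the median (0.059) of mean level. Leaving out 1 array at a time kept the change between -0.96 and -0.74, with limma adjusted p between 0.063 and 0.244. Since the groups do not overlap, leaving out an array could not turn the direction.

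Tie1 encodes the partner receptor of TEK. It lay between 5.82 and 6.49 with stretch and between 5.30 and 6.36 without, so the groups overlapped. Its change was 0.23 ± 0.24 (standard error; 95% interval -0.29 to 0.75; limma adjusted p = 0.72), and leaving out 1 array at a time gave between 0.036, without no-stretch replicate 3, and 0.39, without no-stretch replicate 2. Ptprb, the endothelial phosphatase that dampens TEK, had a change of -0.19 and Svep1, a matrix ligand of TIE1, of 0.51 (limma adjusted p = 0.86 and 0.61). Ptprb was at 0.026 without stretch replicate 3, and Svep1 at 0.13 without no-stretch replicate 3. Within arrays, the log2 difference of Tek over Tie1 changed by -1.07 on average with stretch; whether Tek differed from Tie1 was not tested.

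Kdr, the main signalling receptor for vascular endothelial growth factor A, was at 10.65, 10.00, 9.59, 10.43 and 9.66 in stretch replicates 1 to 5. In no-stretch replicates 1 to 4 it was at 9.64, 9.87, 8.37 and 9.26. All 5 stretched arrays lay above the no-stretch mean, but the ranges overlapped, since no-stretch replicate 2 exceeded stretch replicates 3 and 5. The means were 10.07 ± 0.47 (SD, n = 5) and 9.29 ± 0.66 (SD, n = 4), a change of 0.78 with a standard error of 0.32 (95% interval 0.082 to 1.48), 1.72-fold higher, with limma adjusted p = 0.33. That change shrank to 0.47 when no-stretch replicate 3 was left out, so this array moved it by more than 1.5 times.

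Flt1, the high-affinity receptor, was at 8.38, 7.87, 7.28, 9.58 and 8.29 in stretch replicates 1 to 5 and at 8.11, 8.22, 7.12 and 7.53 in no-stretch replicates 1 to 4. A single array, stretch replicate 4, stood well above the rest, and stretch replicate 3 was below 3 of the 4 no-stretch arrays. The change was 0.54 with a standard error of 0.40 (95% interval -0.34 to 1.41; limma adjusted p = 0.61). Without stretch replicate 4 it was 0.21, and without no-stretch replicate 3 it was 0.33.

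**Figure D2:**
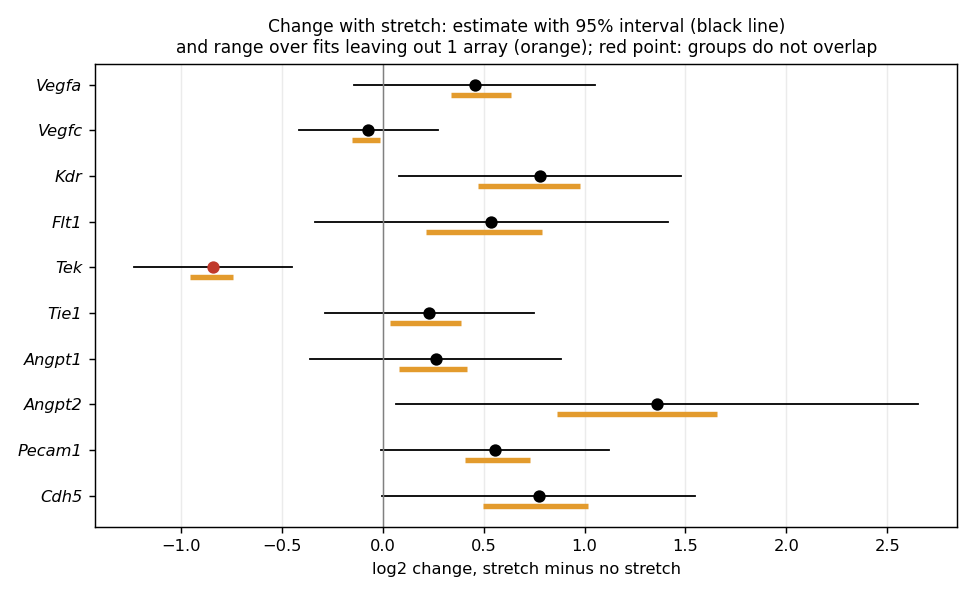
Change of each member (log2, stretch minus no stretch; n = 5 and 4) with its 95% interval from limma as a black line, and below it in orange the range over the 9 fits that each left out 1 array; the red point marks the gene whose groups do not overlap. Tek at -0.84 is the member whose interval lies wholly below 0, and Angpt2 at 1.36 has the widest interval (0.063 to 2.65).

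Among the ligands, Angpt2 had the largest change and the largest spread. It was at 8.81, 7.28, 7.59, 10.13 and 6.97 in stretch replicates 1 to 5, and at 7.32, 6.52, 5.83 and 7.52 in no-stretch replicates 1 to 4. Stretch replicates 4 and 1 were high, while the other 3 stretched arrays lay within or just above the range of the no-stretch arrays. The means were 8.16 ± 1.30 (SD, n = 5) and 6.80 ± 0.78 (SD, n = 4), a change of 1.36 with a standard error of 0.59, 2.56-fold higher, with limma adjusted p = 0.36. Without stretch replicate 4 the change was 0.87, so that this array moved it by more than 1.5 times.

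Angpt1, the ligand that activates TEK, had a change of 0.26 with a standard error of 0.28 (95% interval -0.36 to 0.88; limma adjusted p = 0.74). Its levels were 8.15, 7.30, 7.06, 8.42 and 7.53 in stretch replicates 1 to 5 and 7.46, 7.46, 7.80 and 7.00 in no-stretch replicates 1 to 4. The same stretch replicates 1 and 4 that were highest for Angpt2 were highest here. Leaving out 1 array at a time gave between 0.080, without stretch replicate 4, and 0.42, without stretch replicate 3. Within arrays, the log2 difference of Angpt2 over Angpt1 was larger by 1.10 on average with stretch, with overlapping ranges; it is given as a description with no test.

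Vegfa was at 10.06, 11.07, 10.31, 11.22 and 11.24 in stretch replicates 1 to 5, and at 10.13, 10.37, 10.07 and 10.72 in no-stretch replicates 1 to 4. Stretch replicates 2, 4 and 5 lay above every no-stretch array, whereas replicate 3 lay among them and replicate 1 was just below the lowest. The change was 0.46 with a standard error of 0.27 (95% interval -0.14 to 1.05; limma adjusted p = 0.51). Vegfc, the main ligand of lymphatic growth, lay between 5.96 and 6.52 with stretch and between 6.17 and 6.31 without. Its change of -0.072 (95% interval -0.42 to 0.27; limma adjusted p = 0.88) came with an interval that spans 0, and leaving out 1 array at a time gave between -0.15, without stretch replicate 3, and -0.014, without stretch replicate 4.

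The junction molecules were both higher on average, with overlap. Pecam1 was at 11.09, 10.64, 10.17, 11.46 and 10.94 in stretch replicates 1 to 5 and at 10.23, 10.41, 9.89 and 10.69 in no-stretch replicates 1 to 4. Its change was 0.56 with a standard error of 0.26 (95% interval -0.0092 to 1.12; limma adjusted p = 0.39). Cdh5, the endothelial cadherin, was at 10.67, 10.84, 9.81, 11.10 and 11.56 with stretch and at 10.01, 10.22, 9.20 and 10.67 without, in the order of the replicate numbers. Stretch replicate 3 was the lowest stretched array for both genes and lay within the no-stretch range. The change of Cdh5 was 0.77 with a standard error of 0.35 (95% interval -0.0030 to 1.55; limma adjusted p = 0.39), and without no-stretch replicate 3 it was 0.50.

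Leukocytes and platelets can also carry PECAM1. Of 17 measured markers of these cells, 15 had a positive change and none passed the test, with a median of 0.92 (0.64 without no-stretch replicate 3). Their mean level lay between 0.30 and 1.40 above the no-stretch mean on the stretched arrays and between -0.34 and 0.50 on the others. Clec4e, a myeloid lectin receptor, had a change of 3.18 (limma adjusted p = 0.053). The platelet genes of the list split: the chemokine genes Ppbp and Pf4 were at 1.27 and 1.52, and the surface receptor genes Itga2b and Gp9, the 2 negative members of the 17, at -0.53 and -0.67 (limma adjusted p = 0.14, 0.31, 0.51 and 0.38). Ppbp had a mean level of 3.91 with stretch and 2.64 without, and Gp9 of 4.56 and 5.23. Whether such low levels lay above background was not assessed. The part of these cells in the values of Pecam1, Flt1 and Vegfa was not tested.

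Other endothelial genes mostly had positive changes. Of 30 measured blood endothelial markers that are no members, 22 had a positive and 8 a negative change, and none passed. The median was 0.16 (0.11, with 19 positive, without no-stretch replicate 3). Relative to the no-stretch mean, their mean level was at -0.22 to 0.50 on the stretched arrays. It was at -0.15 to 0.13 on the others, so the groups overlapped. Ecscr, an endothelial surface protein, had a change of 1.01, and Fli1, an ETS factor also made by leukocytes, of 0.98. Clec14a and Mmrn2, an endothelial receptor and its matrix partner, had changes of 0.50 and 0.60 with groups that did not overlap. They were 2 of the 30, against 2.38% of all genes in that direction. Clec14a was low, at a mean of 4.08 with stretch and 3.58 without, and whether it lay above background was not assessed. Mmrn2 had a change of 0.39 without stretch replicate 1. The limma adjusted p-values of these 4 genes lay between 0.14 and 0.32. The water channel gene Aqp1 had the most negative value among the 30, at -0.52, against -0.84 for Tek. Set against the mean of the 30 markers on the same array, and relative to the no-stretch mean, Tek was at -1.47 to -0.48 on the 5 stretched arrays and at -0.20 to 0.28 on the 4 others. This describes unequal change within the arrays and has no test of its own.

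**Figure D3:**
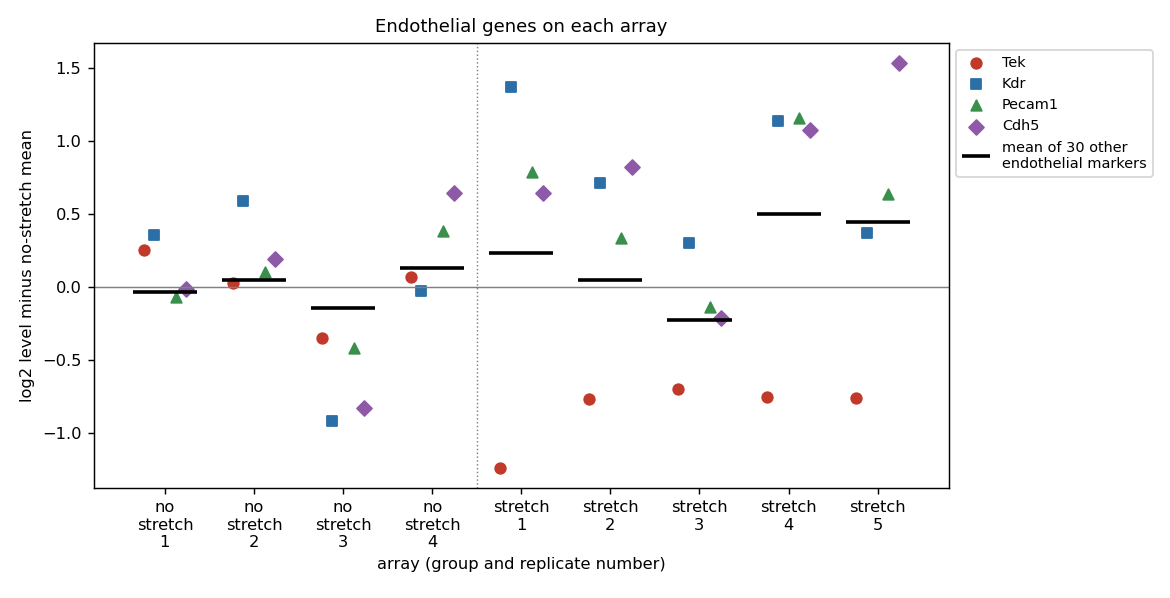
Levels of Tek, Kdr, Pecam1 and Cdh5 on each array (log2, minus each gene's no-stretch mean), with black bars for the mean of the 30 other blood endothelial markers treated the same way; the dotted line parts the 4 no-stretch from the 5 stretched arrays. Tek lies below the black bar on all 5 stretched arrays, and in no-stretch replicate 3 all 4 genes lie below 0.

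How the members varied together was examined over pairs of members, and no pair passed correction. Over the 9 arrays, 14 of the 45 pairs had an unadjusted exact permutation p under 0.05 and 0 passed after Benjamini-Hochberg adjustment over the 45. Pecam1 and Cdh5 had the closest relation (Pearson r = 0.86, exact permutation p = 0.0032, adjusted p = 0.081; Spearman rho = 0.88, exact permutation p = 0.0031). The r of this pair was 0.82 without the 2 arrays farthest from the median of Pecam1. Between deviations from the group means, which do not contain the difference between groups, r was 0.79 (exact permutation p within groups = 0.024, adjusted p = 0.21). Flt1 with Pecam1 had r = 0.84 (exact permutation p = 0.0044, adjusted p = 0.081; rho = 0.85, exact permutation p = 0.0061) and 0.54 without the 2 arrays farthest from the median of Flt1 (n = 7, exact permutation p = 0.21). Vegfa with Vegfc had r = -0.78 (exact permutation p = 0.0090, adjusted p = 0.081; rho = -0.70, exact permutation p = 0.043), and -0.56 without 2 arrays (exact permutation p = 0.19). Both relations thus had no p under 0.05 over the other 7 arrays, while r between deviations from the group means, over all 9, was 0.82 and -0.79. The exact permutation p within groups was 0.021 and 0.028, with an adjusted p of 0.21 for each. Among Kdr, Flt1, Tie1, Pecam1 and Cdh5 all 10 pairs had positive r, from 0.24 to 0.86, and between deviations from the group means from 0.14 to 0.82. Not all of these signs were stable. Without the 2 arrays farthest from the median of the first gene, Kdr with Tie1 had r = -0.17 and Tie1 with Pecam1 -0.16. The other pairs among the 10 stayed positive. For Kdr, Flt1, Tie1, Pecam1 and Cdh5, no-stretch replicate 3 was the lowest of all 9 arrays. It was among the 2 arrays left out in each of these 10 pairs. Tek had a negative r with 8 of the other 9 members (-0.52 to 0.19), whereas between deviations from the group means 7 of the 9 were positive (-0.50 to 0.51). The sign of most Tek relations thus differed between the pooled values and those within groups. None of these relations had an exact permutation p under 0.05. The lowest was 0.15 for the pooled values (with Pecam1) and 0.19 for the deviations (with Angpt1), so the signs are a description. All arrays share 1 normalization.

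By a rule that took the 5 genes of highest Pearson r over the 9 arrays, the genes closest to Cdh5 were Septin11, Cxcl12, H2bc23, Rsu1 and Capns1 (r = 0.95 to 0.97). Those closest to Vegfa were Snx3, Mt1, Prkcb, Pitpna and Plekho1 (r = 0.95 to 0.96), and those closest to Angpt2 were Ap3s1, F12, Skil, Socs5 and Actr3 (r = 0.95 to 0.96). As the highest values among all genes of the array, these are descriptions and carry no p. Cxcl12, a chemokine made by stromal and endothelial cells, itself had a change of 1.47 with a standard error of 0.49 (limma adjusted p = 0.23).

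The wider pathway gave the following picture around the members. Of 13 other measured ligands, 10 had a positive change and none passed (median 0.33). Adm, the vasoactive peptide adrenomedullin, was 5.12-fold, Hgf, hepatocyte growth factor, 2.79-fold, Pgf, a ligand of FLT1, 2.43-fold and Angptl4, a hypoxia- and lipid-responsive secreted protein, 2.04-fold higher, with limma adjusted p between 0.13 and 0.22. No-stretch replicate 3 was low for Adm, which was 3.10-fold higher when that array was left out. Hgf was at 6.68 to 8.95 with stretch and at 5.34 to 6.28 without, the only one of the 13 whose groups did not overlap. Over all genes, the groups of 2.38% did not overlap in that direction. Vegfb, which binds FLT1, had a change of -0.15 and Angpt4, a further TEK ligand, of -0.011 (limma adjusted p = 0.86 and 0.99), and the sign of Angpt4 turned when stretch replicate 3 was left out (0.15).

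Among other receptors and regulators, of 14 measured 8 had a positive change, none passed, and the median of 0.076 turned to -0.011 without no-stretch replicate 3. Plxnd1, a semaphorin receptor of vessels, had a change of 0.90, Nrp2, a co-receptor for VEGF-C, of -0.24 and Flt4, the receptor for VEGF-C, of -0.039 (limma adjusted p = 0.25, 0.78 and 0.94). Nrp2 was at 0.018 without stretch replicate 3 and Flt4 at 0.089 without no-stretch replicate 1, so their signs were not stable. Of 10 endothelial Notch genes none passed (median 0.045, 6 positive); Dll4, the Notch ligand of sprouting tip cells, had a change of 0.77 with limma adjusted p = 0.55. When no-stretch replicate 3 was left out, the Notch median was 0.0018 with 5 positive, and the change of Dll4 was 0.42. Of 13 angiogenesis inhibitors and feedback genes none passed, 6 were positive, and the median of -0.0036 was positive after median centring (0.029) and without no-stretch replicate 3 (0.0049). Sema3e, which repels vessels through PLXND1, was 1.98-fold lower (limma adjusted p = 0.23).

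Most tip cell and sprouting markers and most hypoxia genes had positive changes that did not pass the test. Of 13 tip cell markers that are no members, 11 had a positive change and none passed, with a median of 0.77 (0.67 without no-stretch replicate 3). The basement membrane collagen genes Col4a1 and Col4a2 were 1.74-fold and 1.79-fold higher, and Cxcr4, the receptor for CXCL12, which leukocytes also carry, 2.55-fold higher (limma adjusted p = 0.14, 0.18 and 0.20). Of 19 hypoxia and HIF target genes, 15 had a positive change and none passed (median 0.39, and 0.31 without no-stretch replicate 3). In 4 of the 19 the groups did not overlap in the higher direction, against 2.38% of all genes. The 4 were Hilpda, a lipid droplet protein, at 4.09-fold, the stress gene Ddit4 at 2.53-fold, the glucose transporter gene Slc2a1 at 1.93-fold and the mitophagy receptor gene Bnip3 at 1.90-fold (limma adjusted p = 0.054, 0.082, 0.21 and 0.18). Such counts were not particular to this list. In the same direction, 3 of 17 leukocyte and platelet markers did not overlap. In the lower direction, 4 of 11 fibroblast and 3 of 11 adipocyte markers did not, against 2.15% of all genes. Slc2a1 was at 1.52-fold without no-stretch replicate 3. Vegfa, itself a HIF target, was at 1.37-fold with overlap.

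**Figure D4:**
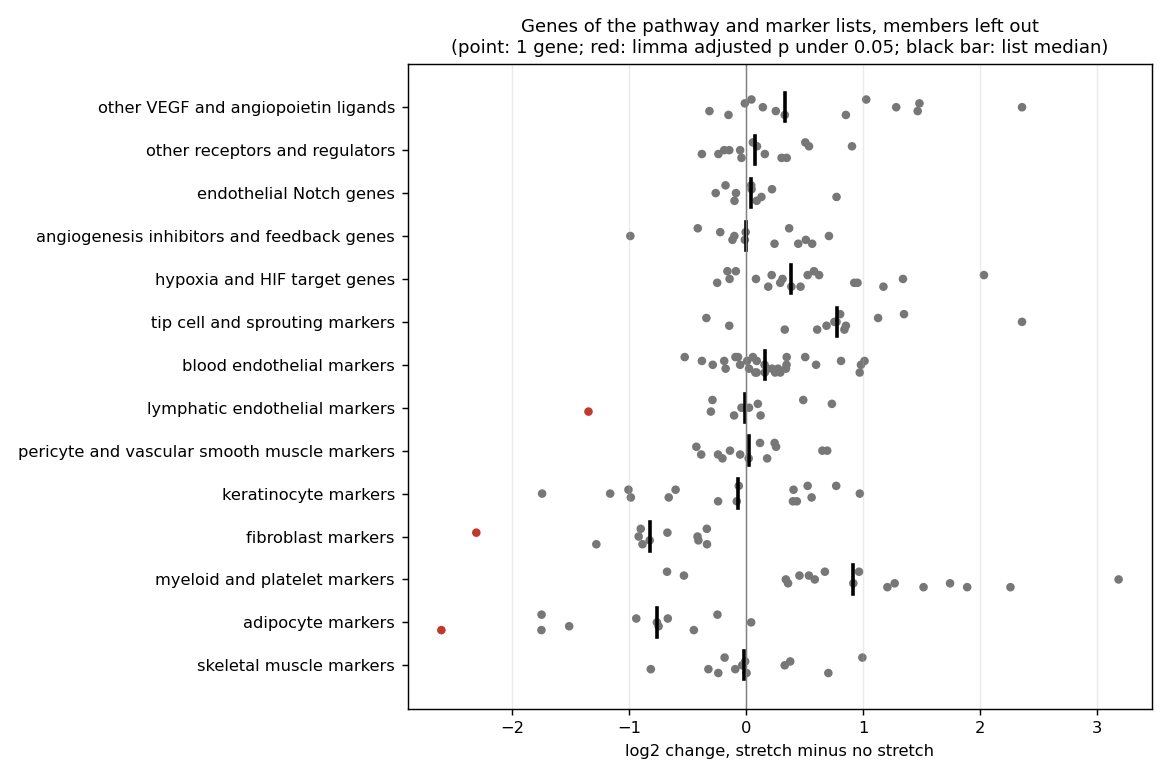
Changes (log2, stretch minus no stretch) of the genes of each pathway and marker list, members left out; each point is 1 gene, red points passed limma's test over all genes, and black bars are list medians. The 3 red points are Ccl21a, Dpt and Thrsp, all lower with stretch. The lymphatic endothelial, Notch and pericyte medians are among those near 0, and the blood endothelial median lies at 0.16.

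Genes of neighbouring cell types were measured beside these. Of 10 lymphatic endothelial markers, Ccl21a, a lymphatic chemokine, fell by 1.35 (limma adjusted p = 0.045), and the other 9 did not pass (5 positive and 4 negative). The median of the 10 was -0.0070, and it was positive after median centring (0.026) and quantile normalization (0.017). None of 13 pericyte and vascular smooth muscle markers passed (7 positive, median 0.022, which turned to -0.046 without no-stretch replicate 3). All 11 measured fibroblast markers had a negative change, with a median of -0.82 and 1, the matrix gene Dpt, past the threshold (change -2.30, limma adjusted p = 0.025). Relative to the no-stretch mean, their mean level was at -0.98 to -0.67 on the stretched arrays and at -0.15 to 0.18 on the others. Likewise, 10 of 11 adipocyte markers were negative (median -0.76), among them Thrsp, a lipogenic gene, past the threshold (change -2.60, limma adjusted p = 0.029). The changes of these 3 genes kept their sign when 1 array at a time was left out, at -1.51 to -1.15 for Ccl21a, -2.50 to -2.04 for Dpt and -2.81 to -2.20 for Thrsp, but the calls did not all hold. Without stretch replicate 2 or without no-stretch replicate 1, 2 or 3 none of the 3 passed (limma adjusted p between 0.054 and 0.13). Ccl21a also failed without stretch replicate 1, 4 or 5 (0.062, 0.099 and 0.066) and Thrsp without stretch replicate 4 (0.066). The fibroblast and adipocyte markers thus had the same sign as Tek, and their part in the lower level of Tek was not tested. Of 16 keratinocyte markers, whose cells are a source of VEGF-A, none passed and 7 were positive (median -0.071). Of 12 skeletal muscle markers none passed; their mean ranged from -1.16 to 0.92 among the stretched arrays alone.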

How the data were processed

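Total RNA of 9 skin samples had been hybridised as biotin-labelled cRNA to Affymetrix arrays, per the labels. The deposited log2 values for 22206 features were used as given; RMA and Transcriptome Analysis Console are named in the submitters' processing notes, without versions. RMA adjusts background, equalises array distributions and summarises probes, which can draw low values together and understate their changes. Mean values reached 19.9 here (Krt1, no stretch). How the deposited values were scaled was not assessed, so folds are those of the deposited values. The genome build and any filters were not given in the sources used here. Features were named through the platform annotation (19572 with 1 symbol, 0 with several, 2634 unnamed), keeping the feature of highest mean where a gene had several (55 genes, no member), which left 19505 genes. Changes were fitted over all genes with lmFit and eBayes (limma 3.58.1, R 4.3.3), two-sided, without covariates, and adjusted by Benjamini-Hochberg. Correlations were tested by exact permutation of the pairings. Fit and permutation were tested on simulated data. The number of arrays limits the precision (median standard error 0.21). Promoters came from a RefSeq table of GRCm38.p6. Members, lists, motifs and tests were chosen with earlier results of these data known. Named were all members, up to 4 genes of smallest p per list, and further list genes picked with their values known. Alternatives covered quantile normalization, median centring, filters on low means, the treatment of features, limma's trend, robust and weighted fits, a replicate block, the threshold and leaving out arrays. Some lists share genes. Angptl2, Egfl7, Nrp1, Vash1, Eno1, Rasip1, Krt6b, Pdgfra, Cd68, Ly6g, Gp1ba and Cfd had no feature under these names.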

Additional observations from a re-analysis of the deposited data

Results flagged for a closer look

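In 20 comparisons of arrays within a group (10 members in 2 groups), 1 array stood apart. Stretch replicate 1 was the lowest stretched array for Tek, and its gap to the next array was 0.876 of the whole range of the group. Chance marks about 1 in 20 such groups. Without that array the change of Tek was -0.74 (limma adjusted p = 0.099).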

How the results depend on the processing

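Of 199 member values recomputed under other settings, 196 stayed on the same side of the threshold, 3 newly passed and none changed sign. Tek passed after quantile normalization (-0.85) and with array weights (-0.86), which gave 1 member past the threshold each, as did an adjusted p under 0.1. Of all genes, 48 passed; 75 did after quantile normalization, 105 among genes above the lower quartile of mean level, 103 among those above the median, 157 with array weights, 211 at an adjusted p under 0.1, 15 without the 2 arrays of lowest weight (chosen after seeing the data), and between 2 (without stretch replicate 2 or no-stretch replicate 3) and 195 (without stretch replicate 3) without single arrays; only without stretch replicate 1 was the count within 1.5 times of 48. Replicate numbers did not pair the samples: same-numbered arrays had correlations of deviations of -0.062, -0.018, 0.064 and 0.34, and 1 of 4 correlated best with its own number. With the number as a replicate block, in which stretch replicate 5 has no partner, 221 genes passed, among them 1 member, Angpt2 (1.66), and Tek had a change of -0.86 (limma adjusted p = 0.13). Where a value moved, the cause was not tested. Tie1, at a mean below the median, was not in the stricter filter. No pair of members passed correction under either alternative for the correlations. Without single arrays no member passed.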
